A study of Mus musculus with 8 samples.

Results

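The genes described here encode the enzymes that make superoxide and hydrogen peroxide in the gut wall, the NADPH oxidases and the dual oxidases. They were chosen by name and number 9. The epithelial set holds Duox2, Duoxa2, Nox1, Noxo1 and Noxa1, and the phagocyte set holds Cybb, Cyba, Ncf1 and Ncf4. A gene was read from a probe set annotated to that gene alone, and from the brightest where a gene had several. By this rule 7 of the 9 genes were measured, among 22180 genes in all. Duoxa2 and Noxo1 have no values here, because the probe set of each is annotated to a second gene as well (Duoxa1 and Tbl3), so 3 epithelial and 4 phagocyte genes are described. Each of the 7 had 1 probe set of its own.

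RNA came from the middle colon of 8 female mice of the strain C57BL/6-Trim58tm2313Arte, 9 weeks old and kept under SPF conditions. The 4 wild type mice were Trim58+/+ and the 4 knockouts were Trim58-/-, lacking in every tissue this gene for an E3 ubiquitin ligase. All 8 received dextran sodium sulfate (DSS), which injures the colon epithelium, at 4% in the drinking water for 7 days, then plain water for 5 days, with tissue taken on day 12. Each mouse gave 1 Affymetrix whole-transcript array, no colon without DSS was measured, and the number of arrays limits the precision.

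NADPH oxidases pass electrons from NADPH across a membrane to oxygen, giving superoxide. Colon epithelial cells use Nox1, which works with the organizer Noxo1 and the activator Noxa1, and Duox2, which releases hydrogen peroxide towards the lumen and needs the maturation factor Duoxa2. Neutrophils, monocytes and macrophages use the enzyme of Cybb with its membrane partner Cyba and cytosolic subunits such as those of Ncf1 and Ncf4 to kill microbes, and B cells make these subunits as well. Loss of CYBB or NCF1 causes chronic granulomatous disease in people, which often comes with colitis, and DUOX2 is a gene that inflammation of the human gut induces strongly.

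None of the 7 measured oxidase genes passed the genotype test. The 3 epithelial genes differed little between genotypes, by 0.02 to 0.15 on the log2 scale, and the 4 phagocyte genes had differences of 0.22 to 0.82, each with the knockout mean above the wild type mean. The test was limma with Benjamini-Hochberg adjustment over the 22180 genes at a threshold of 0.05, under which 0 of 7 oxidase genes and 0.577% of all genes were called. At an unadjusted limma p under 0.05, 3 of the 7 passed, namely Cybb, Ncf1 and Ncf4, all higher in the knockout, where 6.22% of all genes passed in that direction. In 1 of the 7, Ncf4, the knockout values all lay above the wild type values, against 3.79% of all genes. The median log2 difference was 0.14 over the 3 epithelial genes, 0.57 over the 4 phagocyte genes and -0.01 over all genes tested.

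**Figure D1:**
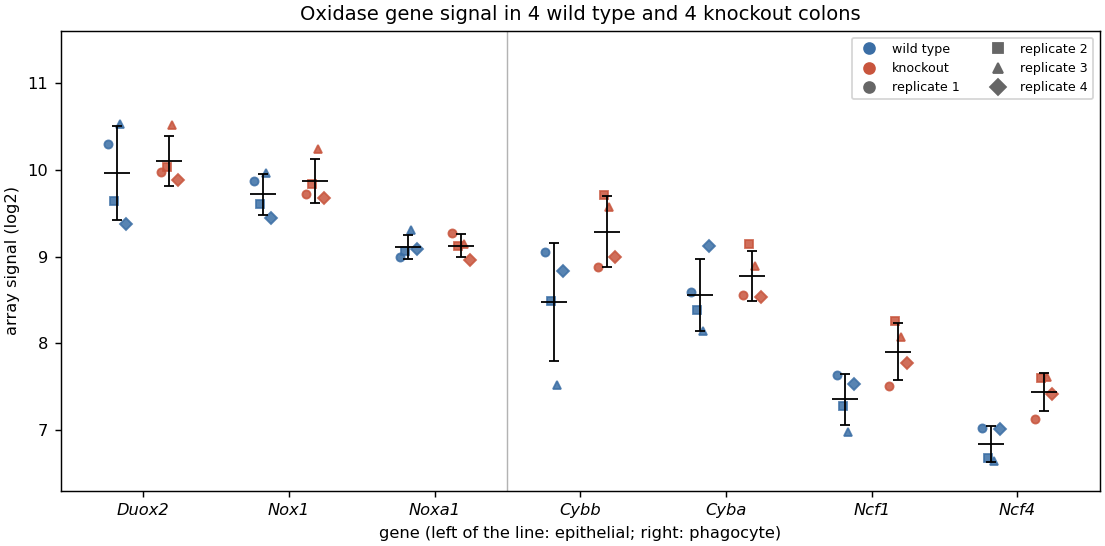
Array signal (log2) of the 7 measured oxidase genes in each of the 8 colons, with symbols for replicates and a bar for the mean ± SD (n = 4 per genotype). The genotypes overlap in every gene but Ncf4, whose 4 knockout values (7.13 to 7.61) lie above the 4 wild type values (6.64 to 7.03); levels of different genes are not comparable on an array.

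The RefSeq promoter table (build GRCm38.p6) held 8 of the 9 genes; Ncf4 had no entry. The 250 bases before the transcript start that the table gives are shown for Duox2 and Nox1, which followed each other from array to array, and for Cybb and Ncf1, which did so too, to set the pairs side by side. For Duox2, Nox1 and Cybb this start lies inside the annotated span of the gene, so other sequence of the gene lies upstream of the window. The Ncf1 start also lies just inside its span, which ends at 134229628, so the window bases nearest that start belong to the gene. Capitals mark matches on either strand to GAGGAA (a core of PU.1 sites), TTCNNNGAA (a STAT pattern), TGANTCA (an AP-1 pattern) and TTTATG (a caudal homeobox pattern); no matches overlapped. Each line runs 5′ to 3′ on the strand of the gene.
Duox2, chr2:122298228-122298477, minus strand: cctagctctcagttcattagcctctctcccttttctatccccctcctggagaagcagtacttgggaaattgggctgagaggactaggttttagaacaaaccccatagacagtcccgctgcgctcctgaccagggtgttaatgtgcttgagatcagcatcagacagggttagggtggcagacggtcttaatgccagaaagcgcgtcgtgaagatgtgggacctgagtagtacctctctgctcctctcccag
Nox1, chrX:134111855-134112104, minus strand: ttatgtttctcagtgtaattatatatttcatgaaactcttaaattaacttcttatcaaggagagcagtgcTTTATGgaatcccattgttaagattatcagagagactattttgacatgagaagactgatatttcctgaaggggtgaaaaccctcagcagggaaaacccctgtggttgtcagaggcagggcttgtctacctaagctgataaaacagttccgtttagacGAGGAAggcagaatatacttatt
Cybb, chrX:9469325-9469574, minus strand: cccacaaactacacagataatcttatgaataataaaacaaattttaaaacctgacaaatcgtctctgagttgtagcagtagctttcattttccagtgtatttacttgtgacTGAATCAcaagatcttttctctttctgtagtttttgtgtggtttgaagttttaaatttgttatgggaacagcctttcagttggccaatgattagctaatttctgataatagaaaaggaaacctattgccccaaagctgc
Ncf1, chr5:134229626-134229875, minus strand: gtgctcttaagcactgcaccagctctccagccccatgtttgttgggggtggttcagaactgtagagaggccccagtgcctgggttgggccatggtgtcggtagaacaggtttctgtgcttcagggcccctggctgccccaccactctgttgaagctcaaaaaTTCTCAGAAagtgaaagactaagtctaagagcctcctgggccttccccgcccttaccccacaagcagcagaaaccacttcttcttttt
The Nox1 window held 1 match each to TTTATG and GAGGAA, starting at -180 and -23 from that transcript start. The Cybb window held 1 match to TGANTCA at -139 and the Ncf1 window 1 match to TTCNNNGAA at -88, so neither pair shared a pattern. The Duoxa2 window, not shown, held TGANTCA at -168. No pattern matched in the windows of Duox2, Noxo1, Noxa1 and Cyba, which says only that these letters are not there. Of the 32851 windows of the same length in the table, 23.3% held GAGGAA, 7.02% TTCNNNGAA, 6.75% TGANTCA and 10.8% TTTATG. The GC content was 52.8% before Duox2, 38.0% before Nox1, 34.0% before Cybb and 54.4% before Ncf1.

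Duox2, the peroxide-releasing dual oxidase of the epithelial surface, read 10.31, 9.64, 10.53 and 9.38 in wild type replicates 1 to 4 and 9.98, 10.04, 10.52 and 9.88 in knockout replicates 1 to 4 (log2 signal). The wild type values spanned the knockout values at both ends. The difference was 0.14 on the log2 scale (95% interval -0.40 to 0.68, standard error 0.24; limma adjusted p = 0.851; two-sided exact permutation p = 0.686), or 1.10-fold with an interval of 0.758-fold to 1.60-fold. Most of it came with a single array, since knockout replicate 3 lay 0.56 above the wild type mean and the other 3 knockouts 0.00147 on average. Pancreatic enzyme RNA, described below, was high in those 3 and not in knockout replicate 3, and its part was not tested. Without wild type replicate 4, the lowest array, the difference was -0.05.

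Nox1, the catalytic subunit of the main oxidase of colon epithelium, read 9.87, 9.61, 9.96 and 9.44 in wild type and 9.72, 9.84, 10.24 and 9.68 in knockout replicates 1 to 4. The groups overlapped, and again knockout replicate 3 was the highest array. The difference was 0.15 (95% interval -0.18 to 0.48, standard error 0.15; limma adjusted p = 0.713; two-sided exact permutation p = 0.486). The other 3 knockouts averaged 0.03 above the wild type mean.

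Noxa1, the activator that Nox1 needs, read 8.99, 9.06, 9.31 and 9.09 in wild type and 9.28, 9.12, 9.15 and 8.97 in knockout replicates 1 to 4. All 8 arrays lay within a narrow span and the genotypes overlapped throughout. The difference was 0.02 (95% interval -0.20 to 0.23, standard error 0.10; limma adjusted p = 0.963; two-sided exact permutation p = 0.8), and its sign turned when knockout replicate 1 or wild type replicate 1 or 2 was left out. The interval bounds a change of Noxa1 between 0.872-fold and 1.17-fold, and that of Nox1 between 0.882-fold and 1.39-fold, on an array scale that compresses differences.

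Cybb, the electron-carrying subunit of the phagocyte oxidase, read 9.05, 8.49, 7.52 and 8.84 in wild type and 8.88, 9.71, 9.57 and 9.00 in knockout replicates 1 to 4. Wild type replicate 3 was by far the lowest array, and wild type replicate 1 lay above knockout replicates 1 and 4. The difference was 0.82 (95% interval 0.12 to 1.51, standard error 0.31), or 1.76-fold, and did not pass the test (limma adjusted p = 0.262; two-sided exact permutation p = 0.114). Without wild type replicate 3 it was 0.50. In bulk tissue more cells of a type and more RNA per cell cannot be told apart.

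Cyba, the membrane partner that the enzymes of Cybb and Nox1 share, read 8.59, 8.39, 8.14 and 9.12 in wild type and 8.56, 9.14, 8.89 and 8.54 in knockout replicates 1 to 4. The groups overlapped over most of their range, with wild type replicate 4 next to the highest knockout. The difference was 0.22 (95% interval -0.23 to 0.68, standard error 0.20; limma adjusted p = 0.693; two-sided exact permutation p = 0.457). It was 0.08 without wild type replicate 3, 0.10 without knockout replicate 2 and 0.41 without wild type replicate 4.

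Ncf1, the organizer subunit that assembles the phagocyte oxidase, read 7.64, 7.28, 6.97 and 7.53 in wild type and 7.51, 8.25, 8.07 and 7.78 in knockout replicates 1 to 4. Only knockout replicate 1 fell inside the wild type range, below wild type replicates 1 and 4. The difference was 0.55 (95% interval 0.15 to 0.95, standard error 0.18), or 1.46-fold, and missed the threshold (limma adjusted p = 0.190; two-sided exact permutation p = 0.0857).

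Ncf4, which binds membrane phosphoinositide and promotes oxidase activity on phagosomes, read 7.03, 6.68, 6.64 and 7.01 in wild type and 7.13, 7.60, 7.61 and 7.41 in knockout replicates 1 to 4. The lowest knockout lay just above the highest wild type array. The difference was 0.60 (95% interval 0.30 to 0.90, standard error 0.13), or 1.52-fold, the smallest p of the 7 genes, and also missed the threshold (limma adjusted p = 0.0820). Its exact permutation p (two-sided) was 0.0286, the smallest that 70 splits of the 8 arrays can give, and 0.200 after Benjamini-Hochberg adjustment over the 7 genes; over all 7 these adjusted permutation values lay between 0.200 and 0.8.

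**Figure D2:**
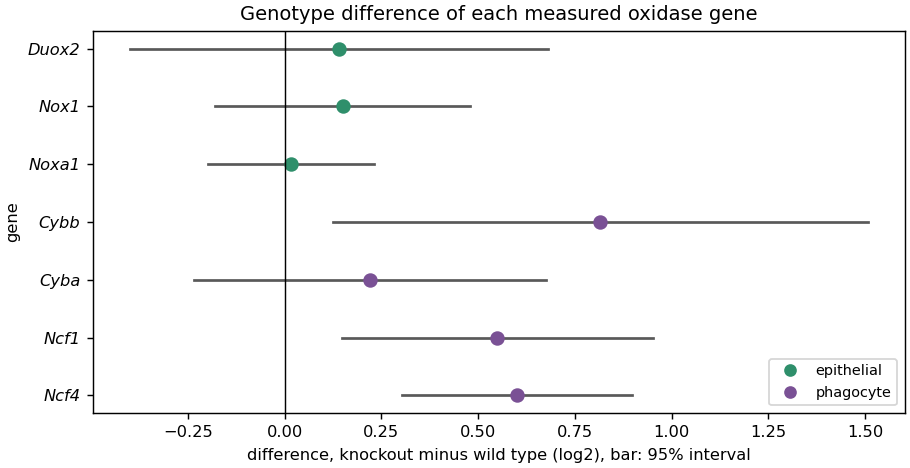
Log2 difference, knockout minus wild type, of the 7 measured oxidase genes, with 95% intervals from limma (points: estimates; 4 arrays per genotype). The intervals of the 3 epithelial genes and of Cyba include 0, and those of Cybb, Ncf1 and Ncf4 lie above 0 before adjustment for the number of genes tested.

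Within each genotype the genes varied from array to array. Correlations were taken over the 8 arrays after each value was set relative to the mean of its own genotype, for all 21 pairs of the 7 genes, with exact permutation within genotype (two-sided) and adjustment over the 21 pairs; this was chosen after the values had been seen. Duox2 and Nox1 followed each other, with Pearson r of 0.938 (permutation p = 0.00174, adjusted 0.0182) and Spearman rho of 0.905 (permutation p = 0.00347, adjusted 0.0365). Their r was 0.938 again without wild type replicate 3 and knockout replicate 3, the arrays farthest from the median of Duox2. Noxa1 did not share this pattern, with r of 0.372 to Duox2 and 0.303 to Nox1 (adjusted permutation p = 0.771 for both), and these fell to -0.165 and -0.226 without the same arrays.

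The 6 pairs among phagocyte genes had r between 0.780 and 0.940. Cybb and Ncf1 had r of 0.936 (permutation p = 0.00174, adjusted 0.0182), rho of 0.952 (permutation p = 0.00174, adjusted 0.0365) and r of 0.931 without wild type replicate 3 and knockout replicate 1. Ncf1 and Ncf4 had r of 0.940 (permutation p = 0.00521, adjusted 0.0273), rho of 0.810 (permutation p = 0.0365, adjusted 0.134) and r of 0.855 without the same arrays. Cybb and Ncf4 had r of 0.836 (permutation p = 0.00347, adjusted 0.0243), rho of 0.857 (permutation p = 0.0208, adjusted 0.134) and r of 0.778. The 3 pairs with Cyba had r of 0.780 to 0.805 and did not pass after adjustment. Between the epithelial and phagocyte sets the 12 pairs had r from -0.616 to 0.185, a median of -0.241 and a lowest adjusted permutation p of 0.374. These r rested on few arrays. Noxa1 and Cybb, the pair with -0.616, had 0.458 without wild type replicate 3 and knockout replicate 1. Without the arrays farthest from the median of the epithelial gene, Cyba had -0.297 with Duox2 and -0.141 with Nox1. The r of the other pairs then lay above 0, up to 0.628. All of these genes share the same arrays and the same tissue pieces, so the pairs are not independent.

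**Figure D3:**
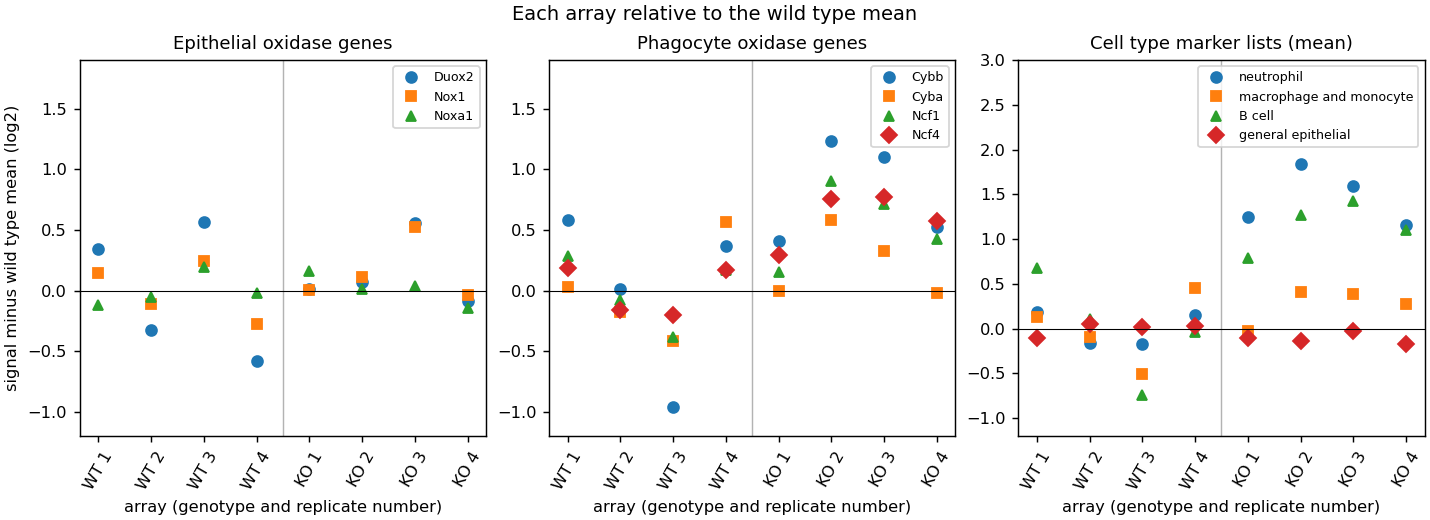
Signal of each array minus the wild type mean (log2) for the epithelial oxidase genes, the phagocyte oxidase genes and the mean of 4 marker lists, by genotype and replicate. Duox2 and Nox1 stand high in wild type replicates 1 and 3 and knockout replicate 3. The 4 phagocyte genes are lowest in wild type replicate 3, where the macrophage, B cell and, narrowly, neutrophil lists are also lowest.

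Markers of cells that carry the phagocyte oxidase also differed between the arrays, and their part in the result was not tested. The mean of 15 neutrophil markers lay between -0.17 and 0.19 in wild type arrays and between 1.16 and 1.84 in knockout arrays, relative to the wild type mean on the log2 scale. Of these markers 10 were higher in the knockout at the adjusted limma threshold and 0 lower, against 0.392% of all genes called higher. The differences of the 15 ranged from -0.36 to 3.20, with a median of 1.45 and 13 above 0. The neutrophil gene S100a9, a calprotectin subunit near the top of that range, had a difference of 3.11, beside the 0.82 of Cybb. Ly6g had the lowest of the 15, -0.36, and Cd177 had 0.02. The 14 macrophage and monocyte markers overlapped between genotypes, at -0.50 to 0.46 in wild type and -0.02 to 0.41 in knockout arrays, with 0 of 14 called. Of these 3 were higher and 0 lower at an unadjusted limma p under 0.05, where 6.22% and 8.1% of all genes passed. The 7 measured B cell markers lay between -0.74 and 0.68 in wild type and between 0.79 and 1.43 in knockout arrays. Of these 1 was called higher, Cr2, and all 7 were higher at an unadjusted limma p under 0.05, against the same 6.22%. Wild type replicate 3, with the lowest Cybb, Cyba, Ncf1 and Ncf4, also had the lowest macrophage and B cell levels. Its neutrophil level was the lowest too, but narrowly, at -0.17 beside -0.16 in wild type replicate 2. An array signal has no true zero, so no marker could be called absent.

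General epithelial markers gave no call. The 11 measured general epithelial markers averaged -0.10 to 0.05 in wild type and -0.17 to -0.02 in knockout arrays, with 0 called. At an unadjusted limma p under 0.05, 1 was lower and 0 higher, where 8.1% and 6.22% of all genes passed. The median difference of the 11 was -0.12, with 1 above 0, against 46.1% of all genes above 0. Epcam, an adhesion molecule of epithelial cells, read 11.70 to 11.83 in wild type and 11.55 to 11.69 in knockout. Its groups thus did not overlap, with a difference of -0.12 (limma adjusted p = 0.496). The mean of 10 absorptive colonocyte markers lay at -0.13 to 0.24 in wild type and -0.71 to -0.32 in knockout arrays, with 2 called lower, Car4 and Slc37a2, against 0.185% of all genes called lower. Beside these values stand the differences of 0.14, 0.15 and 0.02 of Duox2, Nox1 and Noxa1. Posterior colon position genes lay at -0.17 to 0.11 in wild type and -0.65 to -0.01 in knockout arrays, and the part of position along the colon in the oxidase values was not tested.

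The series as a whole held 87 genes called higher and 41 called lower in the knockout. The array medians lay between 5.73 and 5.83 (log2) and correlations between arrays between 0.974 and 0.993. Trim58 read 5.03 to 5.22 in wild type and 4.82 to 5.37 in knockout arrays (limma adjusted p = 0.839), so its probe set does not check the labels. Knockout replicates 1, 2 and 4 carried pancreatic enzyme RNA, with 8 such genes averaging 5.04 to 6.01 above the wild type mean against -0.28 in knockout replicate 3. In knockout replicate 3 the phagocyte genes lay above the wild type mean by 1.10 for Cybb, 0.33 for Cyba, 0.72 for Ncf1 and 0.78 for Ncf4, and in the other 3 knockouts by 0.72, 0.19, 0.49 and 0.54 on average. Duox2, Nox1 and Noxa1 lay above the wild type mean by 0.56, 0.52 and 0.04 in knockout replicate 3. In the other 3 knockouts they lay above that mean by 0.00147, 0.03 and 0.00914 on average. The values of knockout replicate 3 are those of a single array, and the part of the pancreatic RNA was not tested.

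Other subunits and relatives of the oxidases did not pass the test. Of 5 measured (Duox1, Duoxa1, Nox3, Nox4 and Cybc1) 0 were called, against 0.577% of all genes, and the median difference was 0.01. At an unadjusted limma p under 0.05 there were 0, where 6.22% of all genes passed as higher and 8.1% as lower. Duox1, Duoxa1, Nox3 and Nox4 lay below the array medians of 5.73 to 5.83 in all 8 arrays, so a lack of difference says little about them. Duox1, the dual oxidase best known from the airway and thyroid, had a difference of 0.01 (limma adjusted p = 0.975) whose sign turned in 5 of 8 fits without 1 array. Nox4, which makes hydrogen peroxide in stromal and vascular cells, read 5.23 to 5.30 in wild type and 5.33 to 5.47 in knockout arrays (difference 0.11, limma adjusted p = 0.528). Cybc1, a chaperone for the enzyme of Cybb, had a difference of 0.12 (limma adjusted p = 0.607), or 0.06 without knockout replicate 2.

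Genes that switch on the phagocyte oxidase gave no call. Of 10 measured regulators 0 passed the adjusted limma test, while 6 were higher and 1 lower at an unadjusted limma p under 0.05, where 6.22% and 8.1% of all genes passed, and the median difference was 0.45. Rac2, the GTPase that activates the oxidase in blood cells, read 9.24, 8.64, 8.08 and 9.10 in wild type and 9.20, 10.01, 9.50 and 9.29 in knockout replicates 1 to 4. Its groups overlapped slightly, and its difference was 0.73 ± 0.25 (SE; limma adjusted p = 0.210). Rac1, the GTPase present in most cells, had a difference of 0.02. Vav1, an exchange factor for Rac in blood cells, did not overlap between genotypes (6.96 to 7.19 against 7.31 to 7.81) and had a difference of 0.49 (limma adjusted p = 0.0924). Prkcd, a protein kinase C, opposed the list with a difference of -0.29 (limma adjusted p = 0.196).

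Among 7 measured peroxidases and other makers or users of reactive species 0 were called, with 2 higher and 1 lower at an unadjusted limma p under 0.05, where 6.22% and 8.1% of all genes passed. Nos2, the inducible nitric oxide synthase, read 8.59, 6.22, 8.37 and 6.84 in wild type and 8.32, 9.79, 9.66 and 8.05 in knockout replicates 1 to 4. The wild type arrays were widely scattered, and the difference of 1.45 ± 0.56 (SE) did not pass (limma adjusted p = 0.275). Mpo, the peroxidase that neutrophil precursors make, read 5.12 to 5.42 in wild type and 5.28 to 5.39 in knockout arrays (difference 0.04, limma adjusted p = 0.878). These values lay below the array medians of 5.73 to 5.83, so this difference says little about Mpo. Maob, a monoamine oxidase of mitochondria, had a difference of -0.76 with no overlap (7.68 to 8.21 against 6.69 to 7.62; limma adjusted p = 0.0983). Wild type replicates 1 and 3, the higher ones for Nos2, were also the higher ones for Duox2 and Nox1.

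Genes of superoxide and peroxide removal gave 0 calls among 13 measured, with 3 higher at an unadjusted limma p under 0.05, where 6.22% of all genes passed, and a median difference of -0.00112. Sod2, the mitochondrial superoxide dismutase, had a difference of 0.21 (limma adjusted p = 0.330) and Sod3, a secreted superoxide dismutase, 0.63 (limma adjusted p = 0.227). Prdx4, a peroxidase of the endoplasmic reticulum, had a difference of 0.35 (limma adjusted p = 0.223). Gpx2, a glutathione peroxidase of gut epithelium, had a difference of -0.16 (limma adjusted p = 0.713). Its probe set was dim, at 3.92 to 4.46 in wild type and 3.69 to 4.32 in knockout arrays, so this value says little about the gene. The array medians were 5.73 to 5.83. Of 8 measured genes that supply NADPH 0 were called and 3 were higher at that unadjusted p, against the same 6.22%. H6pd, a glucose-6-phosphate dehydrogenase of the endoplasmic reticulum, had a difference of 0.24 with no overlap (limma adjusted p = 0.171) and Me1, the cytosolic malic enzyme, 0.41 (limma adjusted p = 0.560). Single arrays moved these values: Me1 was 0.15 without knockout replicate 4 and 0.66 without knockout replicate 3, Sod3 was 0.36 without wild type replicate 3, and Gpx2 ranged from -0.25 to -0.04 without 1 array.

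The calls in these lists fell among glutathione, thioredoxin and NRF2 target genes, where 2 of 15 were higher and 0 lower, against 0.392% and 0.185% of all genes. Slc7a11, the cystine importer that feeds glutathione synthesis, read 5.61, 5.32, 5.20 and 4.89 in wild type and 6.45, 7.15, 6.85 and 6.17 in knockout replicates 1 to 4. Every knockout lay above every wild type array, and Slc7a11 rose 2.64-fold (1.40 ± 0.21 SE in log2 units; limma adjusted p = 0.0206). The wild type values lay below the array medians of 5.73 to 5.83, so the size of this rise is uncertain. With the mean of the Slc7a11 probe sets in place of the brightest the difference was 0.75 and kept its call (limma adjusted p = 0.0294). Hmox1, which breaks down heme, read 6.16, 5.94, 5.83 and 6.24 in wild type and 6.74, 7.18, 6.66 and 6.70 in knockout replicates 1 to 4, again without overlap, and rose 1.71-fold (0.78 ± 0.13 SE in log2 units; limma adjusted p = 0.0361). The call of Hmox1 ended in 7 of 8 fits without 1 array (all but the one without knockout replicate 3), with repeated quantile normalization and with equal array medians, and that of Slc7a11 in 4 of 8 fits, those without knockout replicate 2 or wild type replicate 2, 3 or 4. Both calls also ended when all probe sets were tested together. The median of the list was 0.07, and Nqo1, a classic NRF2 target, had a difference of 0.04.

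**Figure D4:**
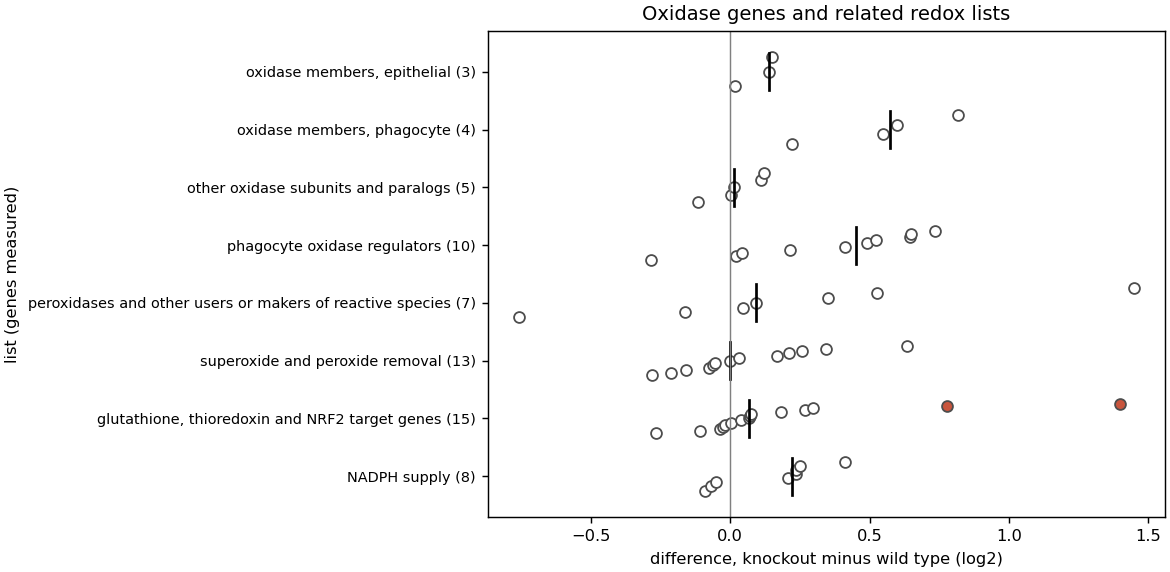
Log2 difference, knockout minus wild type, of every measured gene in the oxidase sets and in 6 related lists (points: genes; filled: limma adjusted p under 0.05; bars: list medians). The 2 filled points are Hmox1 and Slc7a11, and the phagocyte oxidase genes and their regulators have the highest medians, 0.57 and 0.45.

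Likeness to a gene was measured as the root mean square difference over the 8 arrays after each profile was centred on its wild type mean. The 5 genes most like Cybb were P2ry10, Slamf6, H2-DMb2, Igsf6 and Rac2, at 0.144 to 0.175 log2 units. P2ry10 and Slamf6 are receptors of lymphocytes and other blood cells, H2-DMb2 belongs to the MHC class II pathway, and Rac2 is the oxidase activator described above. Their differences between genotypes were 0.73 to 0.95, and none passed the test (limma adjusted p between 0.127 and 0.308). Without wild type replicate 3 the difference of Slamf6 was 0.38 and that of P2ry10 0.49, and Slamf6 was 0.43 with the mean of its probe sets. The genes most like Duox2 were Ptk6, Mir467e, Nox1, Olfr688 and Sgk2, at 0.182 to 0.199 log2 units. Nox1 was thus at place 3 of all genes tested, while Duox2 was at place 1122 among genes most like Nox1, and Ptk6 is a tyrosine kinase of gut epithelium. The genes most like Nox1 were Lyzl4os, Zfp710, Mir3966, Rpgrip1 and Fut2, at 0.0760 to 0.0992 log2 units. Fut2 is an epithelial fucosyltransferase; the measure favours genes with small shifts, and dim probe sets such as Mir3966 (3.36 to 4.11) were among them.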

How the data were processed

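The table as deposited holds log2 values, which the authors made with RMA in Affymetrix Expression Console 1.4, per the submitters' processing notes, from 200 ng of RNA per mouse, per the labels' protocols. RMA corrects background, equalizes array distributions and summarises probes, and it compresses differences of dim and very bright genes. No source used here gives the genome build, a probe set filter or a batch. Of 41345 probe sets, 23521 had 1 gene symbol, 1814 several and 16010 none, and 23328 of the single-symbol probe sets were matched by Entrez identifier to the reference gene table for current symbols. The brightest probe set per gene left 22180 genes, with no filter on dim genes. The genotype test was limma 3.58.1 (R 4.3.3) without covariates; single genes were also tested by exact permutation. The members and lists were chosen with earlier results of these data known. Besides the 9 oxidase genes, the genes named were those called in each list and the smallest p and the largest difference per list. Also named were 8 genes of general interest and the nearest profiles. Rac1, Prkcd, Nqo1, Epcam, S100a9, Ly6g, Cd177, Cr2, Car4 and Slc37a2 were chosen after their values were seen. In a simulation of knockout against wild type over 22180 genes, limma found 58% of 50 genes set 0.5 apart (log2) and 90% of 50 set 1 apart, with 10 false calls. The changed genes were drawn at random over all genes, each with its own spread. These rates are therefore not rates for the oxidase genes, whose standard errors ran from 0.10 to 0.31. Alternatives were a mean-variance trend, array weights, repeated quantile normalization, equal medians, a dim-gene filter, the mean of probe sets, all probe sets, a replicate block and leaving out each array.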

Additional observations from a re-analysis of the deposited data

Results flagged for a closer look

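In 72 groups of 4 arrays (36 named genes in each genotype), 6 held an array far from the other 3 by Dixon's 95% criterion, and chance gives about 1 in 20. None of the 7 oxidase genes was among them. Nox4 was high in knockout replicate 4 (5.47) and Hmox1 in knockout replicate 2 (7.18). Prdx4 was high in wild type replicate 4 (6.18) and Sod3 low in wild type replicate 3 (6.60). In knockout replicate 3, H6pd was low (7.42) and Olfr688 high (5.48).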

How the results depend on the processing

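The count of oxidase genes called by limma was 0 under all 16 alternatives, and 108 of the 112 values of the 7 genes kept their direction and their side of the threshold. The other 4 turned in sign: without 1 array, Duox2 ranged from -0.0546 to 0.328 and Noxa1 from -0.0327 to 0.0813. The epithelial median ranged from 0.00835 to 0.230 and the phagocyte median from 0.460 to 0.692 without 1 array. Over all genes, 87 were called higher and 41 lower. Testing all probe sets gave 24 higher and 1 lower, array weights 69 lower, the filter on dim genes 80 lower and the mean-variance trend 64 lower. Without 1 array the counts ranged from 24 to 172 higher and from 1 to 80 lower. The replicate number as a block gave 56 higher and 8 lower and left none of the 7 oxidase genes called. Same-numbered arrays did not deviate together over all genes (correlations -0.142, -0.160, 0.0422 and 0.0517), which cannot decide whether the numbers pair the mice. With the block the standard error was 0.145 for Duox2 and 0.0996 for Nox1, against 0.243 and 0.149 without it. Those of the other measured oxidase genes were larger with the block. Under the block Slc7a11 kept its call and Hmox1 lost it (limma adjusted p = 0.0874). Differences near 0 also turned without 1 array: Duox1 from -0.0286 to 0.0904, Mpo from -0.0114 to 0.0910, Ptk6 from -0.135 to 0.202, Mir467e from -0.141 to 0.225, Olfr688 from -0.178 to 0.130, Sgk2 from -0.128 to 0.120 and Zfp710 from -0.0129 to 0.153; Sgk2 was 0.00259 with repeated quantile normalization. The dim genes Mpo, Duox1, Nox4, Gpx2, Olfr688, Lyzl4os, Mir3966 and Rpgrip1 were removed by the filter and have no value under it. The cause of these changes was not tested.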
